A study of Mus musculus with 20 samples.

Results

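The 32 genes described here mark astrocytes and radial glia, the cells that line the embryonic and neonatal brain ventricles and give rise to much of its glia. They were measured in whole brains of Hdac4 knock-out (Hdac4KO) and wild-type (WT) mice at postnatal day 3. The members were taken as all probe sets, the groups of short oligonucleotides that together report a transcript on an Affymetrix array, whose single annotated gene symbol was one of the 32. They came to 90 of 45037 probe sets and to 32 of 18193 genes. Of the 32 genes, 8 were taken as progenitor genes, 17 as mature astrocyte genes and 7 as a mixed group of gliogenic transcription factors and matrix genes. The Hdac4KO pups were homozygous for a knock-out present in all cells, bred by intercrossing heterozygotes of a colony kept on B6CBAF1/OlaHsd, and the WT pups were their littermates on that background, untreated in both genotypes. There were 10 arrays per genotype, 5 from each sex by the labels, and each array was 1 sample. All values below are log2 signals, so a log2 fold change of 1 would be a doubling, and the fold change always runs from WT to Hdac4KO. The comparison asked whether the loss of HDAC4, a class IIa histone deacetylase, went with a change in these glial genes.

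Radial glia are the neural stem cells of the developing brain. They carry intermediate filaments of nestin and vimentin, respond to Notch signalling through Hes transcription factors, and first produce neurons and later glia. Around birth in the mouse many of them turn into astrocytes, which take up glutamate, buffer potassium and water, exchange metabolites through gap junctions and secrete lipoproteins, and whose typical genes are still rising in the first weeks of life. Because whole brain was measured, fewer cells of a type and less RNA per cell cannot be told apart.

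Some arrays stood apart. At its most changed probe set Hdac4 was lower in every array labelled Hdac4KO than in any WT array (log2 fold change −1.39, adjusted p = 6.28e-07, limma), but WT replicate 8 (7.54) and Hdac4KO replicate 10 (7.43) nearly met. Sex-linked signals did not match the labelled sex in 3 arrays. WT replicate 5, labelled male, had Xist at 12.65 and Kdm5d at 2.96, and WT replicate 9, labelled female, had them at 5.99 and 8.07, both against the label. Hdac4KO replicate 10, labelled male, carried both signals, with Xist at 12.27 and Kdm5d at 6.88. The excess of 3′ over 5′ signal at the control probe sets for actin and Gapdh, a sign of RNA integrity, averaged 0.191 ± 0.031 in the WT group and 0.216 ± 0.030 in the Hdac4KO group (SD over 10 arrays each).

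All 32 genes gave a clear signal. The brightest probe set of each gene lay above the median of the whole array in all 20 arrays, as did 69 of the 90 member probe sets, while 13 were below it in every array. With an adjusted p under 0.05 (limma) required, no member probe set was higher in the Hdac4KO brains, against 1.05% of all probe sets, and 1 was lower, a probe set of Nes, against 1.01% of all. At an unadjusted p under 0.05, 6 of the 90 were higher and 19 were lower, that is 6.67% and 21.1%, against 9.93% and 8.1% of all probe sets. These 25 probe sets belonged to 16 genes. At the brightest probe sets the log2 fold changes ranged from −0.16 for Gjb6 to 0.16 for Gfap, with a median of −0.011 beside 0.0035 over all probe sets, and 13 were above 0 and 19 below. For 25 of the 32 genes the 95% interval of the change at the brightest probe set lay within a 1.2-fold difference either way, and the median half-width of the interval was 0.094 on the log2 scale.

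**Figure D1:**
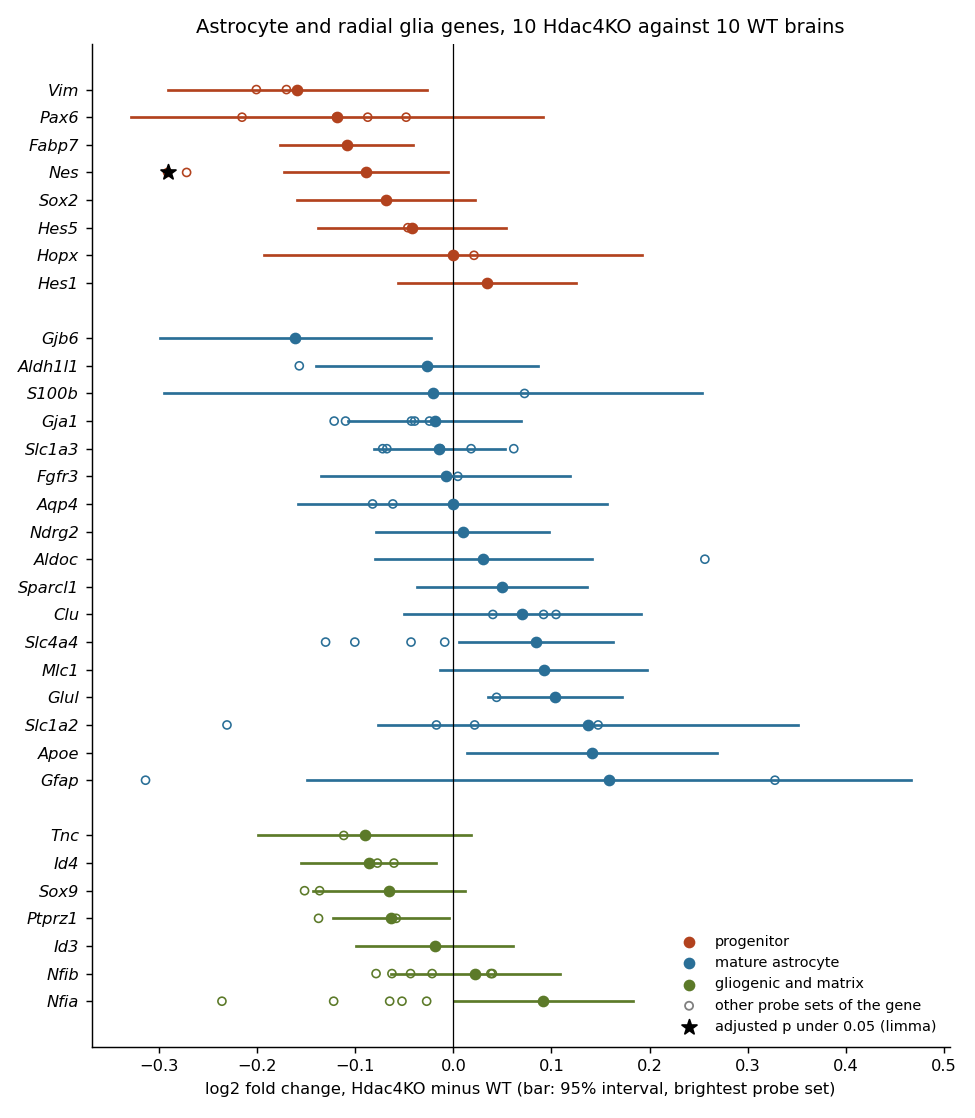
Log2 fold change from WT to Hdac4KO (horizontal axis, 10 arrays per genotype) for the 32 genes. It has filled points and 95% intervals for the brightest probe set of each gene, open points for its other probe sets and a star for the probe set with an adjusted p under 0.05. The single star belongs to Nes at −0.29, and 7 of the 8 progenitor genes lie below 0 at the brightest probe set. Of these 7, Hopx is practically at 0 (−6.49e-05), with its other probe set at 0.02. The mature astrocyte genes lie on both sides, from −0.16 for Gjb6 to 0.16 for Gfap.

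Among the progenitor genes, Nes encodes nestin, the intermediate filament protein by which neural stem cells are usually recognised. At the second brightest of its 3 probe sets its log2 signal ran from 7.69 to 8.04 in WT brains (median 7.80) and from 7.15 to 7.80 in Hdac4KO brains (median 7.58). All 10 Hdac4KO arrays were below the WT mean and 7 of them were below the lowest WT array, so the groups overlapped in the lower part of the WT range. Nes fell there from a mean of 7.83 with an SD of 0.13 to a mean of 7.54 with an SD of 0.21 over 10 arrays each. The log2 fold change, −0.29 with an SE of 0.07 and an adjusted p of 0.0427 (limma), was −18.3% on the linear scale, with a 95% interval of −26.5% to −9.15%. At the brightest Nes probe set the change was −0.09 (95% interval −0.17 to −0.01, adjusted p = 0.246, limma) and at the third −0.27 (adjusted p = 0.142, limma). Thus all 3 lay below 0 and 1 was called, but the third was dim. Its mean was 5.76 in WT and 5.49 in Hdac4KO brains, and it lay below the array median in every array. At the called probe set the signal tended to fall with replicate number in both genotypes. It went from 7.94 in WT replicate 1 to 7.69 in WT replicate 10, and from 7.71 to 7.15 in the same Hdac4KO replicates. The lowest Nes signal of the called probe set was in Hdac4KO replicate 10 (7.15), the array with the most Hdac4 signal and the largest 3′ excess of its group. Without that array and WT replicate 8 the log2 fold change was −0.26 (adjusted p = 0.0697, limma), without the 3 arrays that did not match their sex label −0.27 (adjusted p = 0.0722, limma), and with the 3′ excess as a covariate −0.22 (adjusted p = 0.184, limma). The call was also lost when any 1 of 12 single arrays was left out (WT replicates 1 to 7, Hdac4KO replicates 5, 7, 8, 9 and 10), with adjusted p between 0.0561 and 0.0825 (limma) and a log2 fold change of −0.30 to −0.25.

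Vim encodes vimentin, the filament protein that radial glia and immature astrocytes build together with nestin. Its 3 probe sets had log2 fold changes of −0.16, −0.17 and −0.20, with adjusted p of 0.183, 0.160 and 0.108 (limma), so none was called. At the last of these the log2 signal ran from 10.72 to 11.01 in WT (median 10.88) and from 10.35 to 10.88 in Hdac4KO brains (median 10.75), and 5 Hdac4KO arrays were below the lowest WT array. The lowest were Hdac4KO replicates 7 (10.35), 8 (10.39) and 5 (10.50), which stood apart from the other Hdac4KO arrays, all at 10.68 or above.

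Fabp7 encodes the brain lipid-binding protein, a fatty acid carrier made in quantity by radial glia. Its 1 probe set ran from 13.94 to 14.02 in WT (median 13.97) and from 13.74 to 13.95 in Hdac4KO brains (median 13.90). All 10 Hdac4KO arrays were below the WT mean and 8 were below the lowest WT array. The change, −0.11 on the log2 scale (95% interval −0.18 to −0.04, SE 0.03), had an adjusted p of 0.0782 (limma) and so did not pass the threshold. Without Hdac4KO replicate 2 it passed, at −0.12 (adjusted p = 0.0459, limma). The same replicates as for Vim were lowest, 8 (13.74), 7 (13.74) and 5 (13.76), with the next Hdac4KO array at 13.84. The lowest Hdac4KO arrays of the called Nes probe set were in part different, replicates 10 (7.15), 9 (7.30) and 5 (7.38).

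The other progenitor genes are regulators of the stem cell state. Pax6, a paired-box factor of cortical radial glia, had 5 probe sets, all below 0, with −0.12 at the brightest (95% interval −0.33 to 0.09, adjusted p = 0.584, limma). Sox2, which maintains neural stem cells, had −0.07 (95% interval −0.16 to 0.02). The Notch effectors Hes5 and Hes1 had −0.04 (95% interval −0.14 to 0.05) and 0.03 (95% interval −0.06 to 0.12), and Hopx, a homeodomain protein of outer and adult-type radial glia, had 0.00 (95% interval −0.19 to 0.19). None of these was called. Over all 18 progenitor probe sets, 16 lay below 0 and 9 were lower at an unadjusted p under 0.05, while none was higher at that level, against 8.1% and 9.93% of all probe sets. These 9 probe sets came from 4 genes, Nes, Vim, Pax6 and Fabp7, and probe sets of 1 gene are not independent.

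**Figure D2:**
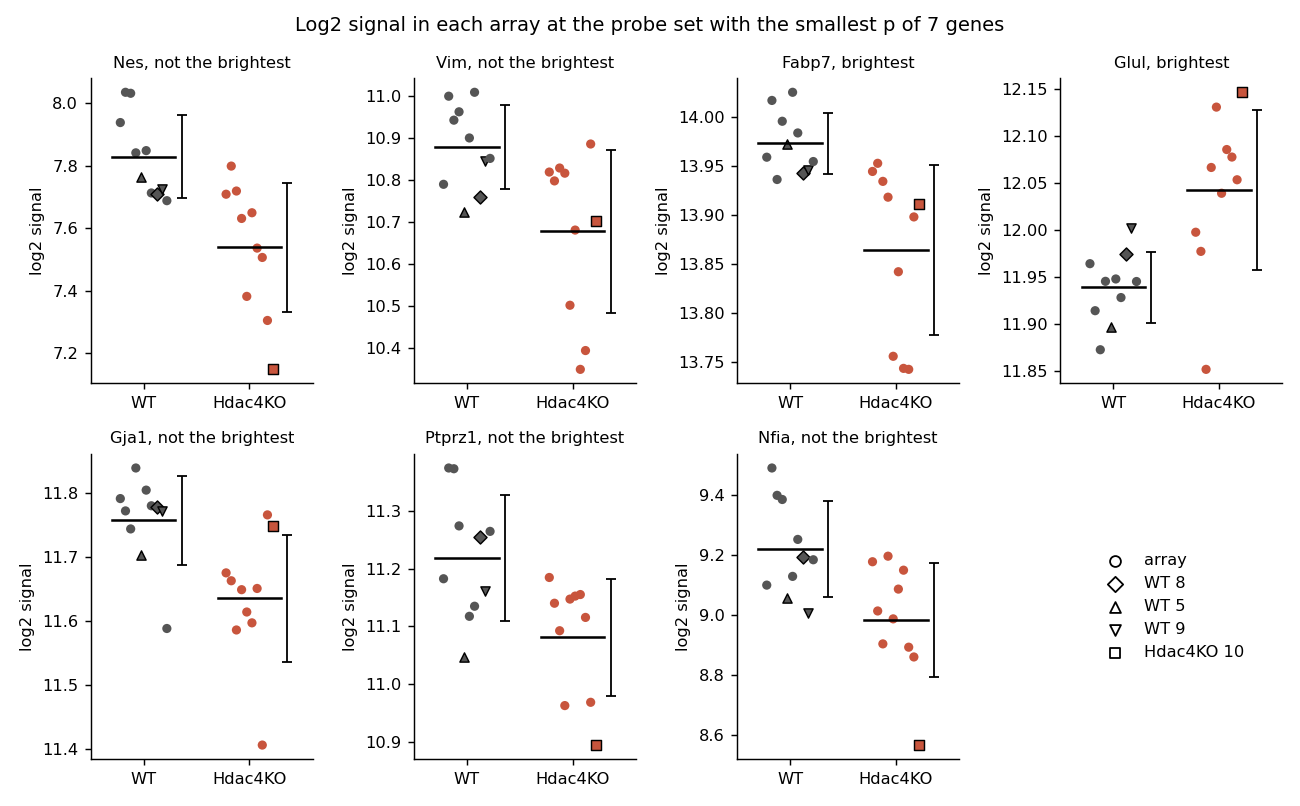
Log2 signal (vertical axis) in each of the 10 WT and 10 Hdac4KO arrays at the probe set with the smallest p of 7 genes, with a line at the mean, a bar of 1 SD beside each group and separate symbols for the arrays that stood apart. Of the 10 Hdac4KO arrays, 7 lie below every WT array for Nes, 5 for Vim and 8 for Fabp7, 7 lie above every WT array for Glul, and 3 Hdac4KO arrays form a low cluster for Vim (10.35 to 10.50) and for Fabp7 (13.74 to 13.76).

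None of the 47 probe sets of the 17 mature astrocyte genes was called. Of these, 22 lay above 0 and 25 below, and 5 were higher and 4 lower at an unadjusted p under 0.05. Among all probe sets 9.93% were higher and 8.1% lower at that level. The mature probe set with the smallest p was the brightest of Glul, glutamine synthetase, which turns the glutamate taken up by astrocytes into glutamine. Its log2 signal ran from 11.87 to 12.00 in WT (median 11.95) and from 11.85 to 12.15 in Hdac4KO brains (median 12.06). In Hdac4KO brains 7 arrays lay above the highest WT array, and 1, replicate 3 (11.85), lay below the lowest. The change was 0.10 on the log2 scale (95% interval 0.04 to 0.17, adjusted p = 0.0963, limma), and its second probe set had 0.04. Without Hdac4KO replicate 3 it was 0.12 (adjusted p = 0.0279, limma), a call. In the RefSeq annotation Glul is the only member on the chromosome that carries Hdac4.

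Neither glutamate transporter was called. Slc1a3 (GLAST), already abundant in radial glia, had −0.01 at the brightest of 6 probe sets (95% interval −0.08 to 0.05), and Slc1a2 (GLT-1), the transporter of more mature astrocytes, had 0.14 with a wide interval (−0.08 to 0.35) and probe sets on both sides of 0. The bicarbonate transporter Slc4a4 had 0.08 (95% interval 0.01 to 0.16, adjusted p = 0.241, limma) at the brightest of 5, with the other 4 below 0. The membrane protein Mlc1 of astrocyte endfeet had 0.09 (95% interval −0.01 to 0.20), and the water channel Aqp4 had 0.00 (95% interval −0.16 to 0.16) with its other probe sets at −0.08 and −0.06.

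The gap junction genes lay below 0. Gja1 encodes a connexin, the main gap junction protein of astrocytes, and all 6 of its probe sets were below 0, from −0.12 to −0.02. At the one with the smallest p the log2 signal ran from 11.59 to 11.84 in WT (median 11.77) and from 11.41 to 11.77 in Hdac4KO brains (median 11.65). Only 2 Hdac4KO arrays were below the lowest WT array, WT replicate 10 (11.59), while the next WT array was at 11.70. The change was −0.12 on the log2 scale (adjusted p = 0.106, limma), against −0.02 (95% interval −0.11 to 0.07) at the brightest. Gjb6, the gene of a second astrocyte connexin, had the lowest value of all brightest probe sets, −0.16 (95% interval −0.30 to −0.02, adjusted p = 0.200, limma).

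The remaining mature astrocyte genes were not called. Apoe, the main apolipoprotein made by astrocytes, had a log2 fold change of 0.14 (95% interval 0.01 to 0.27, adjusted p = 0.226, limma), with 9 of 10 Hdac4KO arrays above the WT mean. Clu, clusterin, another apolipoprotein, had 0.07 (95% interval −0.05 to 0.19) and all 4 of its probe sets above 0. Sparcl1, a secreted synapse-promoting protein, had 0.05 (95% interval −0.04 to 0.14). Aldoc, the aldolase of astrocytes, had 0.03 (95% interval −0.08 to 0.14) at its brightest probe set and 0.26 (adjusted p = 0.123, limma) at its other one, which without WT replicate 9 was called at 0.30 (adjusted p = 0.0456, limma). The folate enzyme Aldh1l1 had −0.03 (95% interval −0.14 to 0.09), Ndrg2 had 0.01 (95% interval −0.08 to 0.10), and the growth factor receptor Fgfr3 had −0.01 (95% interval −0.13 to 0.12).

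Gfap and S100b, the classical astrocyte markers, had the largest spread between brains of 1 genotype among the brightest probe sets. Gfap encodes the filament protein that replaces vimentin as astrocytes mature, and its brightest probe set had SDs of 0.37 in WT and 0.35 in Hdac4KO brains, so the log2 fold change of 0.16 had an interval from −0.15 to 0.47. The second Gfap probe set had 0.33 (adjusted p = 0.215, limma). The third had −0.31 (adjusted p = 0.753, limma) with 3 Hdac4KO arrays, replicates 6 (4.09), 8 (4.25) and 7 (4.44), far below all other arrays, whose lowest was WT replicate 7 (5.56). At the other 2 Gfap probe sets these 3 arrays were not set apart (6.70 to 6.98 and 6.95 to 7.33). S100b, a calcium-binding protein, had −0.02 (95% interval −0.30 to 0.25).

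The 7 gliogenic and matrix genes had no called probe set either. Of their 25 probe sets 21 lay below 0. At an unadjusted p under 0.05, 1 was higher and 6 were lower, against 9.93% and 8.1% of all probe sets. Ptprz1, a receptor phosphatase of radial glia that binds tenascin, had all 3 probe sets below 0, and at the one with the smallest p the log2 signal ran from 11.05 to 11.37 in WT (median 11.22) and from 10.89 to 11.18 in Hdac4KO brains (median 11.13). All 10 Hdac4KO arrays were below the WT mean there and 3 below the lowest WT array, and the change was −0.14 on the log2 scale (adjusted p = 0.120, limma). Tnc, tenascin C, had −0.09 (95% interval −0.20 to 0.02). Sox9, a factor of the switch from neuron to glia production, had 3 probe sets at −0.07, −0.15 and −0.14, and Id4, an inhibitor of differentiation factors, had 3 at −0.09 (95% interval −0.16 to −0.02, adjusted p = 0.164, limma), −0.08 and −0.06. Its relative Id3 had −0.02 (95% interval −0.10 to 0.06).

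The nuclear factors Nfia and Nfib, which drive astrocyte differentiation, gave mixed readings. Of the 6 Nfia probe sets the brightest had a log2 fold change of 0.09 (95% interval 0.00 to 0.18, adjusted p = 0.275, limma) and the other 5 were below 0. At the Nfia probe set with the smallest p the signal ran from 9.005 to 9.49 in WT (median 9.19) and from 8.57 to 9.20 in Hdac4KO brains (median 9.0), and 5 Hdac4KO arrays were below the lowest WT array. The change there was −0.24 on the log2 scale (adjusted p = 0.0940, limma), with Hdac4KO replicate 10 lowest. Nfib had 0.02 (95% interval −0.06 to 0.11) at its brightest probe set, and its 7 probe sets lay on both sides of 0.

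The progenitor genes were set against the mature astrocyte genes as a description, without a test. The median log2 fold change over the brightest probe sets was −0.079 for the 8 progenitor genes, 0.031 for the 17 mature genes and −0.064 for the 7 others, beside 0.0035 over all probe sets. Counting every probe set, 16 of 18 progenitor, 25 of 47 mature and 21 of 25 other ones lay below 0. The mature median changed sign without WT replicate 1 (−0.0056) and with the most variable probe set of each gene (−0.0079), and was 0.059 without WT replicate 9. For each array the mean log2 signal of the mature genes was subtracted from that of the progenitor genes. The difference ran from −0.75 to −0.51 in WT (median −0.65) and from −0.92 to −0.56 in Hdac4KO brains (median −0.72). It averaged −0.639 ± 0.072 in WT and −0.745 ± 0.129 in Hdac4KO brains (SD over 10 arrays each), a difference of −0.106 between genotypes. In all, 5 Hdac4KO arrays, replicates 4, 5, 7, 8 and 10, were below every WT array. The spread was thus wider among the Hdac4KO arrays, and the other 5 lay within the WT range. Without WT replicate 8 and Hdac4KO replicate 10 the difference between genotypes was −0.097, and without the 3 arrays that did not match their sex label −0.113.

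**Figure D3:**
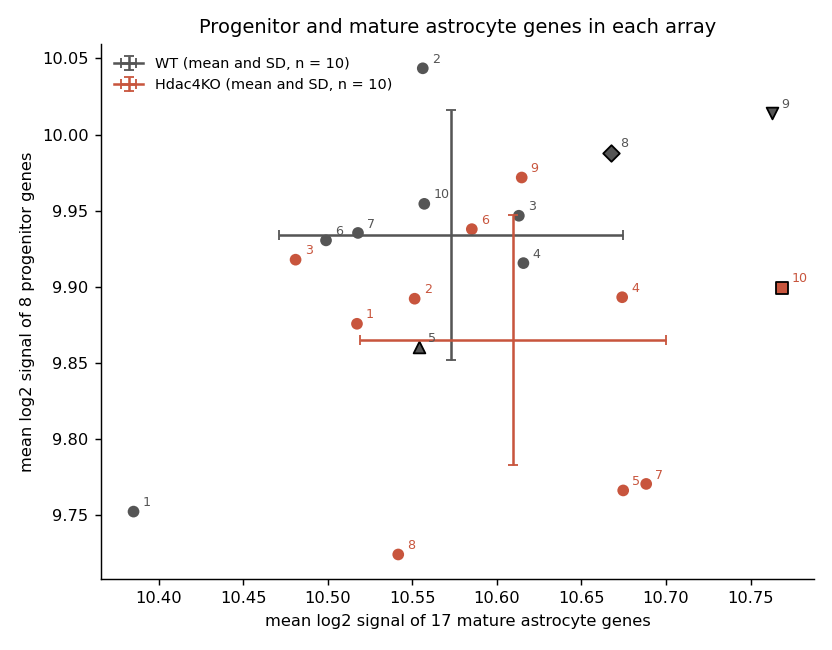
Mean log2 signal of the 17 mature astrocyte genes (horizontal axis) and of the 8 progenitor genes (vertical axis) in each array, by genotype, with replicate numbers, group means and 1 SD. The 2 groups overlap on both axes, Hdac4KO replicates 5, 7 and 8 lie low on the progenitor axis (9.72 to 9.77) beside WT replicate 1 (9.75), and WT replicate 9 and Hdac4KO replicate 10 have the highest mature means (10.76 and 10.77).

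The mean of the progenitor genes itself overlapped between genotypes, from 9.75 to 10.04 in WT and from 9.72 to 9.97 in Hdac4KO brains, and so did that of the mature genes, from 10.39 to 10.76 and from 10.48 to 10.77. The arrays with the highest mature mean, WT replicate 9 and Hdac4KO replicate 10, were both among those whose sex-linked signals did not match the label. In 10 of the 20 arrays the progenitor and mature means lay on the same side of their genotype's mean, 6 of 10 in WT and 4 of 10 in Hdac4KO. WT replicate 1 was lowest of the WT arrays for both means (9.75 and 10.39), and the map of all 32 genes shows it low for S100b, Pax6, Hopx, Aqp4 and Aldoc.

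**Figure D4:**
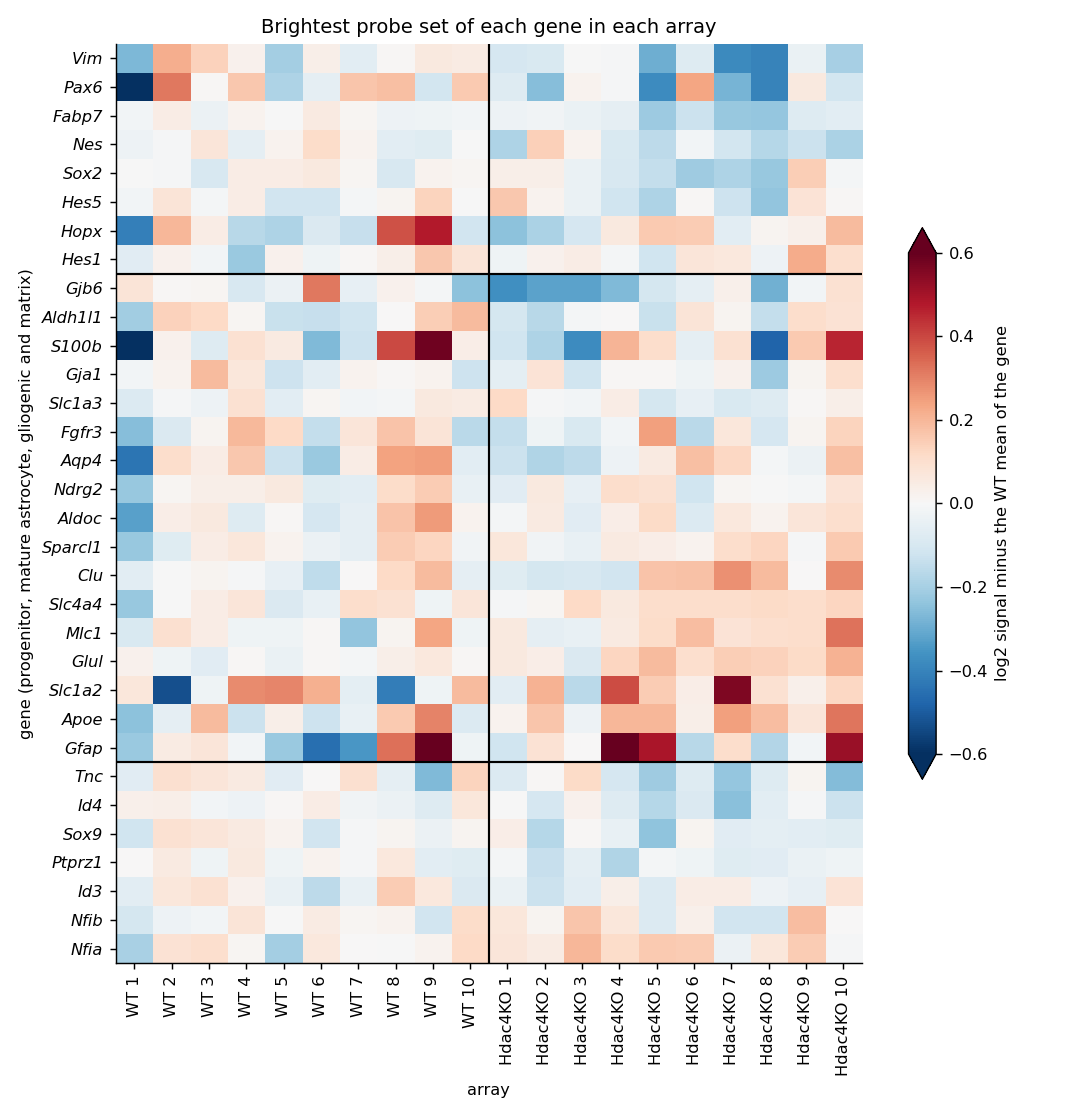
Log2 signal minus the WT mean of the gene (colour, limits at 0.6 either way) for the brightest probe set of each of the 32 genes (rows, by group) in the 20 arrays (columns). Vim and Fabp7 are low in Hdac4KO replicates 5, 7 and 8, Glul is above its WT mean in 9 of 10 Hdac4KO arrays, and S100b and Gfap differ most between arrays of the same genotype.

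The spread between arrays of 1 genotype was small for most members. The median pooled SD of the brightest probe sets was 0.0999, beside 0.121 over all probe sets and 0.0920 over those above the array median in all arrays, and the largest was that of Gfap (0.359). The change with genotype was also compared between labelled females and males. No member probe set had an interaction at an adjusted p under 0.05 (smallest 0.917, limma) and 0 of 90 had one at an unadjusted p under 0.05, against 5.35% of all probe sets. At the called Nes probe set the log2 fold change was −0.32 in labelled females and −0.26 in labelled males.

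Genes of the same cells outside the 32 were read from 4 further lists. Of 34 further astrocyte genes measured, none was called at the brightest probe set, with a median log2 fold change of 0.045, and 9 were higher and 2 lower at an unadjusted p under 0.05. Over all 54 of their probe sets 11 were higher and 5 lower at that level, against 9.93% and 8.1% of all probe sets. At the brightest probe sets Agt, angiotensinogen, had the smallest p (0.34, adjusted p = 0.0724, limma), followed by Slc25a18, a mitochondrial glutamate carrier (0.17), Luzp2 (−0.18) and Dio2, the deiodinase that activates thyroid hormone (0.22). Luzp2, 1 of the 2 genes lower at the brightest probe set, had mean log2 signals of 3.31 in WT and 3.13 in Hdac4KO brains, far under the array medians of 6.26 to 6.32. Of 34 further radial glia and progenitor genes none was called at the brightest probe set, with a median of −0.016, and 0 were higher and 6 lower at an unadjusted p under 0.05. Over all 85 of their probe sets 2 were higher and 16 lower at that level, against 9.93% and 8.1% of all probe sets. At the brightest probe sets the smallest p values were those of the POU factors Pou3f4 (−0.25, adjusted p = 0.0768, limma) and Pou3f2 (−0.21), the Notch ligand Dll3 (−0.11) and Dbi (−0.08). Among 19 further gliogenic factors the median was 0.007 and no brightest probe set was called. At an unadjusted p under 0.05 Zeb2 was lower there (−0.34, adjusted p = 0.168, limma), and Smad4 (0.10) and Id1 (0.12) were higher. Over their 52 probe sets 4 were higher and 4 lower at that level, against 9.93% and 8.1% of all. Of the 52, 1 was called, against 1.05% of all probe sets called higher. It was a dimmer one of Id2, of the same family as Id1, Id3 and Id4 (0.12, adjusted p = 0.0426, limma). The brightest Id2 probe set had 0.007 (adjusted p = 0.964, limma). Among 24 genes of reactive astrocytes none was called and the median was 0.013, with Serpina3n at 0.32 (adjusted p = 0.0841, limma), Osmr at 0.19, Emp1 at −0.17 and Timp1 at 0.11.

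**Figure D5:**
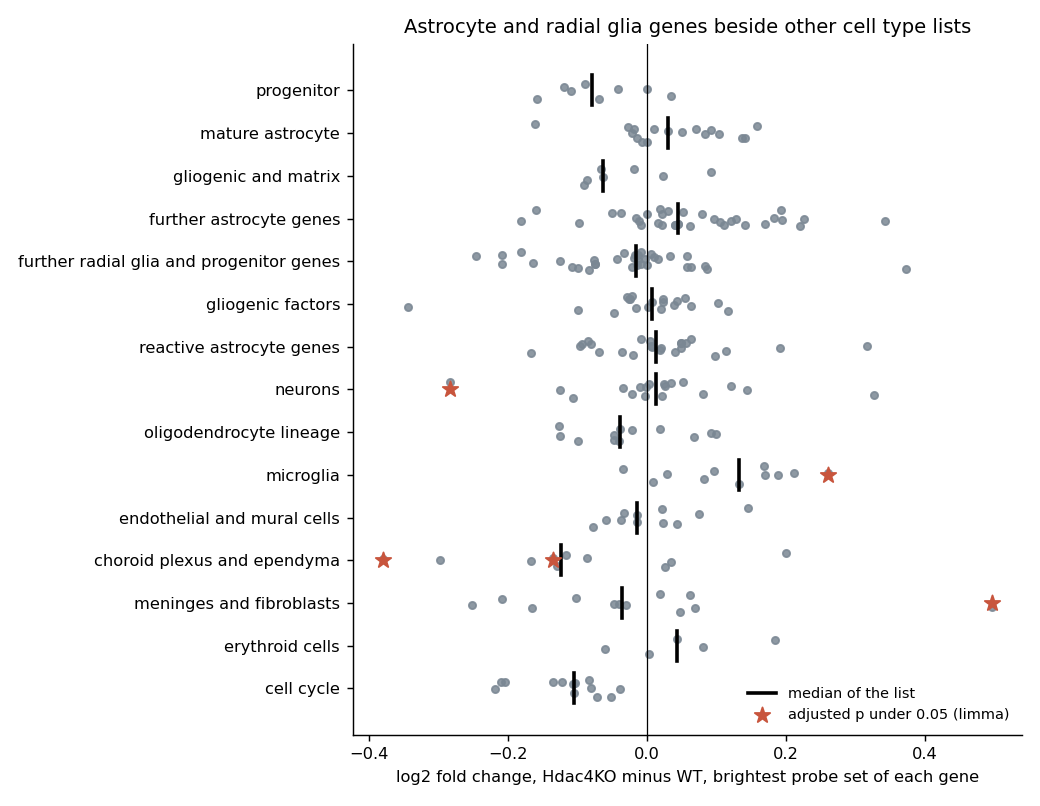
Log2 fold change (horizontal axis, Hdac4KO minus WT) of the brightest probe set of each gene in the 3 groups of members and 12 other lists, with a bar at the median of each list and stars for probe sets with an adjusted p under 0.05 (limma). The medians run from −0.124 for choroid plexus and ependyma to 0.132 for microglia, and the stars lie in neurons, microglia, choroid plexus and meninges. Among the starred genes, Calml4 (choroid plexus) and Igfbp6 (meninges) had already been reported as changed by the paper from these arrays.

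Genes of other cell types and of dividing cells were read from the same arrays, and their part in the values above was not tested. Beside the counts below, 1.05% of all probe sets were called higher and 1.01% lower, and the median log2 fold change over all was 0.0035. Of 13 cell cycle genes all 13 were below 0 at the brightest probe set, with a median of −0.105, and none was called there. At an unadjusted p under 0.05, 0 were higher and 3 lower. Over all 24 of their probe sets 0 were higher and 5 lower at that level, against 9.93% and 8.1% of all probe sets. Cdk1 (−0.21), Top2a (−0.22), Bub1 (−0.20) and Rrm2 (−0.11) had the smallest p, and a dimmer probe set of the kinetochore motor Cenpe was lower (−0.56, adjusted p = 0.0234, limma). The log2 of their summed signals ran from 12.66 to 12.97 in WT (median 12.86) and from 12.64 to 13.01 in Hdac4KO brains (median 12.74). Of 10 choroid plexus and ependyma genes, which mark the other cells lining the ventricles, Calml4 (−0.38, adjusted p = 0.0368, limma) and the transthyretin gene Ttr (−0.14, adjusted p = 0.0420, limma) were lower, the median was −0.124 and the sums ran from 14.13 to 14.35 and from 14.00 to 14.22. The paper had already reported Calml4 as lowered after choosing it from these arrays, so its call is not an independent reading of these cells. Of 11 microglia genes Tmem119 was higher (0.26, adjusted p = 0.0179, limma), 10 lay above 0 and the median was 0.132, with sums of 11.25 to 11.53 and 11.22 to 11.74. In neurons 1 of 18 genes was called at the brightest probe set, the neurofilament gene Nefl (−0.28, adjusted p = 0.0427, limma), and dimmer probe sets of Slc17a6 (−0.52, adjusted p = 0.0182, limma) and Syt1 (−0.38, adjusted p = 0.0310, limma) were lower. The brightest probe sets of these 2 genes did not follow: Slc17a6 had −0.03 (adjusted p = 0.594, limma) and Syt1 had 0.14 (adjusted p = 0.0504, limma). The neuronal median was 0.013, with sums of 16.48 to 16.53 and 16.48 to 16.53. Of 12 meningeal genes Igfbp6 was higher (0.50, adjusted p = 0.0347, limma), but 7 lay below 0 and 5 above. The median was −0.035, and Lum (−0.25, adjusted p = 0.0642, limma) and Col3a1 (−0.21, adjusted p = 0.0872, limma) had the next smallest p. Sums ran from 13.37 to 13.69 in WT and from 13.34 to 13.53 in Hdac4KO brains. The paper had already reported Igfbp6 as raised after choosing it from these arrays, so its call is not an independent reading of meningeal cells. Of 12 genes of the oligodendrocyte lineage, 11 of endothelial and mural cells and 5 of erythroid cells none was called, with medians of −0.040, −0.015 and 0.044.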

How the data were processed

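RNA of whole brains was measured on 20 Affymetrix mouse genome arrays. For each array the authors deposited the log2 signal of every probe set, after labelling 200 ng of total RNA with a 3′ IVT kit and excluding chips by their standard error. How probes were summarised and arrays normalized was not stated in the labels or methods. Of 45101 probe sets, 64 controls were left out. Of the 45037 tested, 34945 carried 1 gene symbol in the platform annotation, 932 several and 9160 none. A probe set that named Slc1a2 beside another gene was not used. The number of arrays limits the precision. Nothing states that replicate numbers mark litters or days. The p-values of the genotype comparison set the difference between genotypes against the spread between these samples within a genotype.

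The genotype comparison used limma 3.58.1 (lmFit, eBayes; R 4.3.3) without covariates, and Benjamini-Hochberg adjustment ran over all 45037 probe sets, with calls at an adjusted p under 0.05. The interaction with labelled sex came from a fit of 4 groups. The methods' t-test was an alternative, as were Welch's test, covariates, a replicate block, other normalization, filters, array weights, 1 value per gene and arrays left out. The fitting was tested on simulated data. The members and lists were chosen with earlier results of these data known. All 32 members are named, by the brightest probe set, with array ranges for Nes and the 6 others with the smallest p, and up to 4 genes of each other list by p.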

Additional observations from a re-analysis of the deposited data

Results flagged for a closer look

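In 2 of the 64 groups of 10 arrays tested, 1 array lay far below the others of its genotype by Dixon's ratio of its gap to the range (95% critical value for 10). Chance alone gives about 1 in 20 such groups. For Pax6, WT replicate 1 was lowest at 7.94, the next WT array was at 8.40 and the highest at 8.90, a ratio of 0.481. For Tnc, WT replicate 9 was lowest at 9.99, the next was at 10.2 and the highest at 10.4, a ratio of 0.491.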

How the results depend on the processing

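The Nes call was kept under 7 of 12 other settings and 8 of 20 that left out 1 array, always below 0 (log2 fold change −0.32 to −0.22). No member probe set was lower by the methods' t-test (Nes adjusted p = 0.0561), by Welch's test (0.0682), with the 3′ excess as a covariate, with 1 value per gene (brightest, most variable or mean), or without either set of arrays that stood apart: 0 in each. With trend and robust eBayes and with dim probe sets left out 2 were lower (Nes and Fabp7) and 1 higher (Glul), and with array weights 2 were lower; with 1 array left out, 0 to 2 were lower and 0 to 1 higher (Aldoc or Glul). The cause was not tested. Over all probe sets the replicate numbers did not pair the arrays (1 of 10 pairs correlated over 0.1), which does not speak for single probe sets. At the called Nes probe set the signal tended to fall with replicate number in both genotypes. With the numbers as a replicate block the Nes value was −0.29 (adjusted p = 0.00436, limma) and 1 member was lower. Gja1, Vim, Nfia and Ptprz1 were called under none of 32 settings. The progenitor median stayed between −0.093 and −0.066, the mature median between −0.008 and 0.059, below 0 with the most variable probe set or without WT replicate 1, and 0.004 with all other members added. No interaction was called under any of 5 settings.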
